A study of Mus musculus with 6 samples.

Results

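The Notch pathway was described here through 10 genes, the ligands Dll1 and Jag1, the receptors Notch1, Notch2 and Notch3, the receptor modifier Lfng, and the target genes Hes1, Hes5, Hey1 and Hey2. They were taken by name from a table of 24421 gene symbols, and all 10 were listed with reads. The series measured polyadenylated transcripts in primary mouse embryonic neural stem cells (day E13.5), 3 Pml knockout libraries (Pml-/-) against 3 WT libraries. Pml encodes the scaffold protein of the promyelocytic leukemia nuclear bodies. All cells grew as neurospheres, floating clusters of progenitors, in 20 ng/ml epidermal growth factor and 20 ng/ml fibroblast growth factor 2 at 20% oxygen, and were lysed on day 4 after dissociation. The labels do not state the knockout allele. They number the replicates without saying whether these came from separate cultures or embryos, so p-values rest on the spread among these libraries alone, and that spread may be technical.

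Notch receptors are cleaved after a ligand on a neighbouring cell binds them, and the released intracellular domain joins the DNA-binding protein Rbpj to switch on target genes. The targets Hes1, Hes5, Hey1 and Hey2 encode basic helix-loop-helix repressors. In the embryonic brain they hold back proneural genes and keep radial glia and other progenitors from differentiating, while cells committing to the neuronal fate display Dll1. Lfng, lunatic fringe, adds a sugar to the receptors in the Golgi and shifts their response between Delta-type and Jagged-type ligands.

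Promoter windows of 250 bases before to 50 bases after the annotated start were matched by symbol for 8 of the 10 members, with a pair of windows for Dll1 and so 9 in all (RefSeq, GRCm38.p6). They were searched on both strands for TGGGAA, the core of the Rbpj site, and for its longer form GTGGGAA. The windows of Hey2, Hes5 and Lfng are shown because they held the longer form. In the comparison below Hey2 and Lfng stood on different sides, and Hes5 overlapped between genotypes. Capitals mark every match to TGGGAA or GTGGGAA on either strand, and the sequences run 5′ to 3′ on the strand of the gene.
Hey2, chr10:30842734-30843033, minus strand: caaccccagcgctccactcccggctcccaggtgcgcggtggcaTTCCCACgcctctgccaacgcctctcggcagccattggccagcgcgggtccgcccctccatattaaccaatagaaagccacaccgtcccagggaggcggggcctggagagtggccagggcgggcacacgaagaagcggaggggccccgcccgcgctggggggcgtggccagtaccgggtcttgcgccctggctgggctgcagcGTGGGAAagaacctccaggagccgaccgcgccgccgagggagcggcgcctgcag
Hes5, chr4:154960673-154960972, plus strand: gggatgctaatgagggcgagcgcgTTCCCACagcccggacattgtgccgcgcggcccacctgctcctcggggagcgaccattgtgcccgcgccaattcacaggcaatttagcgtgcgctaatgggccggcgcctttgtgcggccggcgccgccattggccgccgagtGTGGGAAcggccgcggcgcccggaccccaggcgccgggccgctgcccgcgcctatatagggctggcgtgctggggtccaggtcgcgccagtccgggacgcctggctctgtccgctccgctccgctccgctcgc
Lfng, chr5:140607091-140607390, plus strand: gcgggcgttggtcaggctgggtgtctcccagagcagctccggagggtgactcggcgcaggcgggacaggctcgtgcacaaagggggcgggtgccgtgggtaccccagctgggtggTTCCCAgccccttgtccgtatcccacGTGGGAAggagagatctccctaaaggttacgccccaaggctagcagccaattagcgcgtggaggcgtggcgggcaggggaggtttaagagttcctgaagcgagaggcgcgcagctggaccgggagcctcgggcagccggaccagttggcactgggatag
Hey2 and Hes5 each held GTGGGAA on both strands. The matches began 207 and 4 bases before the start in Hey2 and 226 and 83 bases before it in Hes5. Lfng held 1 match to the longer form, 109 bases before its start, and 1 to TGGGAA alone on the other strand, 135 bases before it. GTGGGAA was in 3 of the 9 member windows and in 6.38% of 32851 windows of the same length. TGGGAA was in the same 3 member windows and in 25.6% of all windows. CACGTG, an E-box bound by Hey proteins, was in 1 member window, that of Lfng, where it overlapped GTGGGAA, and in 7.15% of all windows. CACNAG, the N-box bound by Hes proteins, was in 5 of the 9 and in 42.5% of all windows. These matches describe the letters in the windows and do not show binding.

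Total counts ran from 4980638 to 5917505 in the Pml knockout libraries and from 1775152 to 4413318 in the WT libraries. Reads of the 10 members summed to between 4510 and 5593 in knockout libraries and between 970 and 3746 in WT libraries. WT replicate 2 was the shallowest, and WT replicate 3 stood nearer to the knockout libraries in several ways. The 45S pre-ribosomal RNA row took 14.6 to 17.6% of the counts in knockout libraries, against 41.9%, 39.8% and 19.6% in WT replicates 1, 2 and 3. The 10 hepatocyte markers, all detected, summed to 47.8 to 70.7 CPM (counts scaled to a fixed library total with TMM factors) in knockout libraries and to 299, 542 and 83.1 CPM in WT replicates 1, 2 and 3. The part of these differences in the results below was not tested. The 8 neural stem cell markers, all detected, summed to 6322 to 7711 CPM in knockout and 5352 to 7030 CPM in WT libraries, with Vim the largest part. Among them Fabp7, a fatty acid binding protein of radial glia, averaged 1456 ± 726 CPM in knockout and 378 ± 318 CPM in WT cells (SD, n = 3 each). Nes and Sox2 were lower in knockout cells (log2 fold changes of -0.46 and -0.23) and Pax6 was higher (0.68). Sox1, Slc1a3 and Vim were nearly level (0.0003, 0.02 and 0.05). The 5 astrocyte markers, all detected, summed to 673 to 936 CPM in knockout and 452 to 1482 CPM in WT libraries, with Aldoc the largest part. Aqp4 among them averaged 58.5 ± 36.6 CPM in knockout and 13.3 ± 4.06 CPM in WT cells. Gfap, S100b and Aldoc went the other way (log2 fold changes of -1.64, -0.53 and -0.30), and Aldh1l1 was nearly level (0.02). Neither Fabp7 nor Aqp4 passed by edgeR (adjusted p 0.24 and 0.197). The 6 neuronal markers, all detected, summed to 559 to 599 CPM in knockout and 452 to 637 CPM in WT libraries. Map2 was nearly all of this sum, with means of 551 CPM in knockout and 493 CPM in WT cells. In knockout and WT cells Dcx averaged 12.2 and 7.28 CPM, Tubb3 5.37 and 10.2 CPM, and Rbfox3 4.42 and 7.33 CPM. Stmn2 and Neurod1 had too few reads to test. The 5 oligodendrocyte lineage markers, all detected, summed to 1616 to 1734 CPM in knockout and 1070 to 2023 CPM in WT libraries. The part of Fabp7, Aqp4 and these sums in the results was not tested either. Of 6 endothelial markers, the defining Cdh5, Tek, Cldn5 and Emcn had 0 reads in every library, and the sum was 1.65 to 3.31 CPM in knockout and 1.60 to 4.46 CPM in WT libraries. Of 6 mural cell markers, which matter for Notch3, Kcnj8 was at 0 throughout and the sum was 7.09 to 25.8 CPM in knockout and 5.45 to 23.2 CPM in WT libraries. The 5 microglial markers summed to 0 to 1.65 CPM in knockout and 0.908 to 30.4 CPM in WT libraries, the highest being WT replicate 2. Of 6 erythroid markers, 5 were at 0 throughout, and the sum was 0 CPM in every knockout library and at most 0.595 CPM in WT. Pml itself had 14, 23 and 5 reads in knockout replicates 1, 2 and 3 and 36, 35 and 44 in WT replicates 1, 2 and 3. In the same order this is 2.11, 3.79 and 0.746 CPM in knockout and 10.7, 28.0 and 9.99 CPM in WT libraries, with no overlap. The log2 fold change of Pml was -2.81 (SE 0.661). Its edgeR adjusted p was 0.197, so Pml too did not pass. A 3′ tag lying outside the deleted part would not report on the deletion.

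By edgeR's quasi-likelihood test, 0 of the 10 members passed an adjusted p of 0.05 in either direction, against 0.00884% of 11317 tested genes that passed higher (1 gene) and 0 that passed lower. At an unadjusted p under 0.05, 4 members were higher in Pml knockout cells (Hey2, Dll1, Notch2 and Notch3), where 6.70% of all tested genes were, and 1 was lower (Lfng), where 9.19% were. The genotypes did not overlap for Hey2, Dll1, Notch2 and Hes1, all above WT, as for 12.3% of tested genes, and for Lfng, below WT, as for 11.3%. The median log2 fold change was 0.63 over the members, 8 of them positive, and -0.01 over all tested genes, of which 49.7% were positive. DESeq2 called Hey2 higher, as it did 0.928% of all genes, and Lfng lower, as it did 1.97%, while limma voom called 0 members. The edgeR exact test called Hey2 and Dll1 higher, with 0.990% of all genes, and Lfng lower, with 1.51%. The authors' deposited table lists adjusted p-values below 0.05 for the same 3 genes, namely 0.00183 for Hey2, 0.0463 for Dll1 and 0.00697 for Lfng. There, 1.13% of 12349 genes pass higher and 1.81% lower. The counts and calls above that include Hey2 are limited, because all WT libraries together held only 1 read of this gene. Its place among the genes tested here came from the knockout libraries alone, where it was high. Hey2 is therefore not ranked as better supported than the other members. In these bulk samples, fewer cells of a type and less RNA per cell cannot be told apart.

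**Figure D1:**
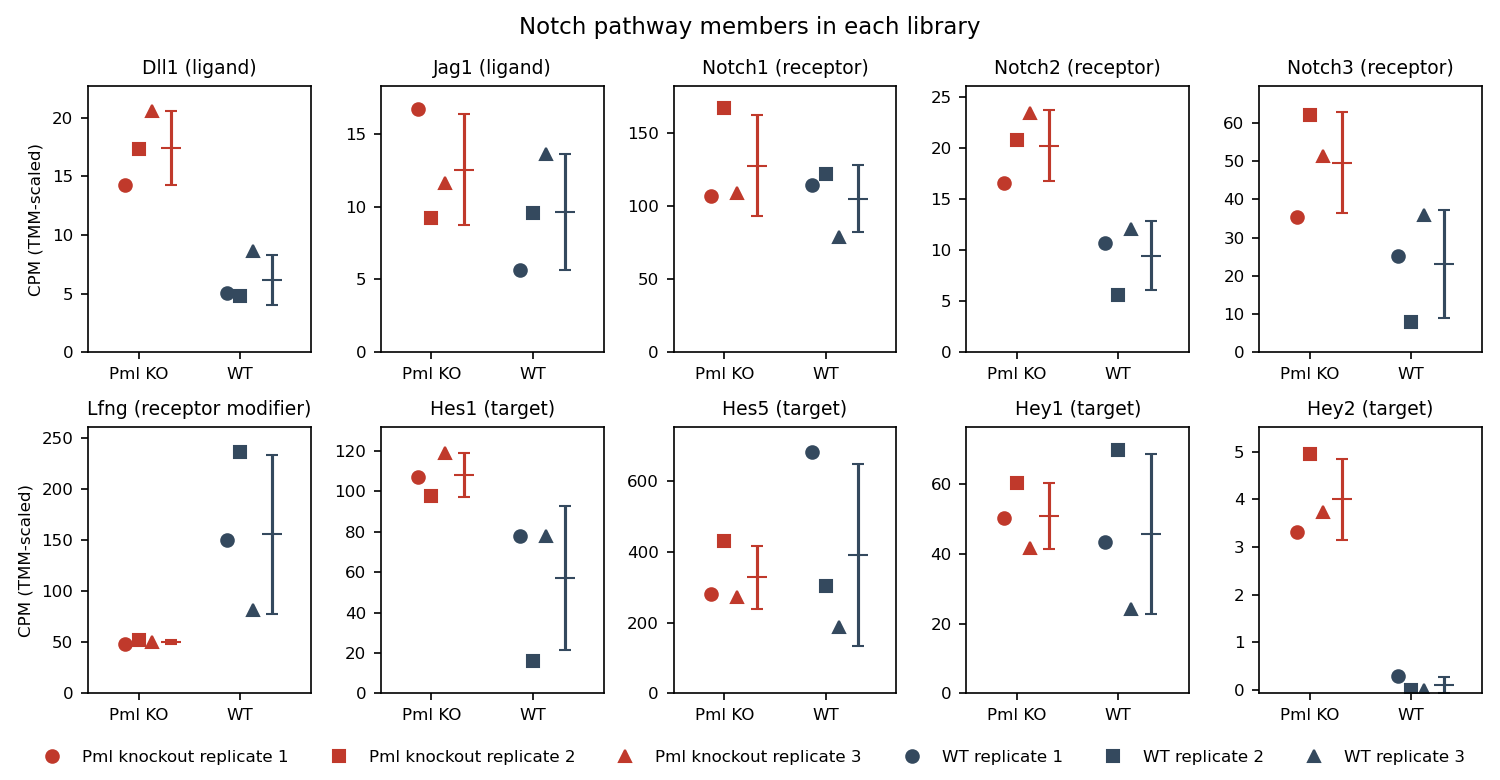
CPM (TMM-scaled, linear axes) of the 10 members in each library, with Pml knockout in red at the left and WT in dark blue at the right of each panel; marker shapes give the replicate number and bars the mean ± SD (n = 3). Hey2, Dll1, Notch2 and Hes1 lie above WT in all 3 knockout libraries and Lfng below it, while the other 5 overlap.

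Among the ligands, Dll1 was higher in every Pml knockout library than in any WT library (ENSMUSG00000014773.13, chromosome 17, 15367354 to 15376872, minus strand, GRCm38). It had 95, 105 and 138 reads in knockout replicates 1, 2 and 3, which is 14.3, 17.3 and 20.6 CPM, and 17, 6 and 38 reads in WT replicates 1, 2 and 3, which is 5.06, 4.80 and 8.63 CPM. WT replicate 3 was the nearest to the knockout. The means were 17.4 ± 3.15 CPM in knockout and 6.16 ± 2.14 CPM in WT cells (SD, n = 3 each). The log2 fold change was 1.45 (SE 0.402) at an adjusted p of 0.212 by edgeR. A transcript annotated on the opposite strand, A930024N18Rik, overlaps an exon of Dll1 but not its 3′ end. Jag1, the Jagged-type ligand, overlapped between genotypes (ENSMUSG00000027276.7, chromosome 2, 137081456 to 137116644, minus strand). Its levels were 16.7, 9.23 and 11.6 CPM in knockout replicates 1, 2 and 3 and 5.66, 9.59 and 13.6 CPM in WT replicates 1, 2 and 3. Both the lowest and the second highest of the 6 values were WT libraries, and the log2 fold change was 0.37 (SE 0.446). The reads of Jag1 per read of Dll1 were 1.17, 0.533 and 0.565 in knockout replicates 1, 2 and 3 and 1.12, 2.00 and 1.58 in WT replicates 1, 2 and 3, which overlap.

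Of the receptors, Notch1 did not separate the genotypes, Notch2 was higher in every Pml knockout library, and Notch3 overlapped narrowly. Notch1, the main receptor of cortical progenitors (ENSMUSG00000026923.15, chromosome 2, 26457903 to 26516663, minus strand), averaged 127 ± 34.4 CPM in Pml knockout and 105 ± 23.1 CPM in WT cells (SD, n = 3 each). Its knockout values of 107, 167 and 109 CPM interleave with the WT values of 115, 122 and 78.5 CPM. Notch2 (ENSMUSG00000027878.11, chromosome 3, 98013527 to 98150361, plus strand) had 16.5, 20.8 and 23.4 CPM in knockout replicates 1, 2 and 3 and 10.7, 5.60 and 12.0 CPM in WT replicates 1, 2 and 3. The lowest knockout library thus lay above the highest WT library. Its log2 fold change was 1.04 (SE 0.378), with an edgeR adjusted p of 0.242. A transcript annotated on the same strand, Gm42820, overlaps an exon of Notch2 but not its 3′ end. Notch3 (ENSMUSG00000038146.8, chromosome 17, 32120820 to 32166852, minus strand) had 35.5, 62.0 and 51.5 CPM in knockout replicates 1, 2 and 3 and 25.3, 7.99 and 35.9 CPM in WT replicates 1, 2 and 3. Knockout replicate 1 and WT replicate 3 were almost level, so the groups overlap, and WT replicate 2, with 10 reads, was far below the rest. The log2 fold change of Notch3 was 1.05 (SE 0.453), and its edgeR adjusted p was 0.301. Annotated transcripts on the opposite strand cover the 3′ ends of Notch1 (0610009E02Rik and Gm13568) and Notch3 (Gm17276), and without a stated strand setting their reads cannot be told apart from those of the receptors.

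The make-up of receptor reads within a library does not depend on how libraries are scaled. Notch1 supplied 67.2% (95% exact Clopper-Pearson interval 64.3 to 70.0), 66.9% (64.5 to 69.3) and 59.2% (56.4 to 61.9) of the reads of the 3 receptors in knockout replicates 1, 2 and 3. In WT replicates 1, 2 and 3 it supplied 76.1% (72.1 to 79.7), 89.9% (84.4 to 94.0) and 62.1% (57.9 to 66.2). WT replicate 3 thus fell among the knockout libraries, while WT replicates 1 and 2 lay above all of them. Notch3 made up 22.4%, 24.8% and 28.0% in knockout replicates 1, 2 and 3 and 16.8%, 5.92% and 28.4% in WT replicates 1, 2 and 3. Notch2 made up 10.4%, 8.31% and 12.8% in knockout replicates 1, 2 and 3 and 7.11%, 4.14% and 9.52% in WT replicates 1, 2 and 3. No receptor's share separated the genotypes. The intervals cover counting error only.

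Lfng was the member that was lower in Pml knockout cells with no overlap (ENSMUSG00000029570.5, chromosome 5, 140607320 to 140615545, plus strand). Its levels were 48.4, 52.6 and 50.9 CPM in knockout replicates 1, 2 and 3 and 150, 237 and 81.3 CPM in WT replicates 1, 2 and 3. The knockout libraries were nearly equal and the WT libraries spread widely, with WT replicate 3 again the nearest to the knockout. The means were 50.6 ± 2.09 CPM in knockout and 156 ± 77.8 CPM in WT cells (SD, n = 3 each). The log2 fold change was -1.61 (SE 0.367) at an adjusted p of 0.197 by edgeR. The other fringe genes, Mfng and Rfng, encode glycosyltransferases of the same family and were looked at together after their values were seen. Mfng had 7.22, 8.25 and 7.61 CPM in knockout replicates 1, 2 and 3 and 11.9, 13.6 and 10.7 CPM in WT replicates 1, 2 and 3. Rfng had 8.58, 13.4 and 12.8 CPM in knockout replicates 1, 2 and 3 and 22.6, 44.8 and 15.2 CPM in WT replicates 1, 2 and 3. Neither overlapped between genotypes, but 11.3% of all tested genes also lay below WT with no overlap. Neither passed by edgeR (adjusted p 0.425 for Mfng and 0.242 for Rfng). Their log2 fold changes were -0.63 (SE 0.374) and -1.20 (SE 0.437).

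Lfng was also set against other members within a library. There were 3.39, 3.04 and 2.47 reads of Lfng per read of Dll1 in Pml knockout replicates 1, 2 and 3, and 29.7, 49.3 and 9.42 in WT replicates 1, 2 and 3. On the log2 scale this ratio averaged 1.56 ± 0.232 in knockout and 4.58 ± 1.22 in WT cells (SD, n = 3 each). Against Notch1 there were 0.454, 0.315 and 0.468 reads of Lfng in knockout replicates 1, 2 and 3 and 1.31, 1.95 and 1.03 in WT replicates 1, 2 and 3. Both ratios kept the genotypes apart, also where WT replicate 3 was set alone against the knockout libraries. For Lfng to Dll1 this outcome was fixed by the levels given above. Lfng was lower and Dll1 higher in every knockout library than in any WT library, so that ratio adds no separate evidence. The pairs were chosen with the members' values known, so no test was made. The ratios of Notch2 and Notch3 to Notch1 and of Hes1 to Hes5 overlapped between genotypes.

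**Figure D2:**
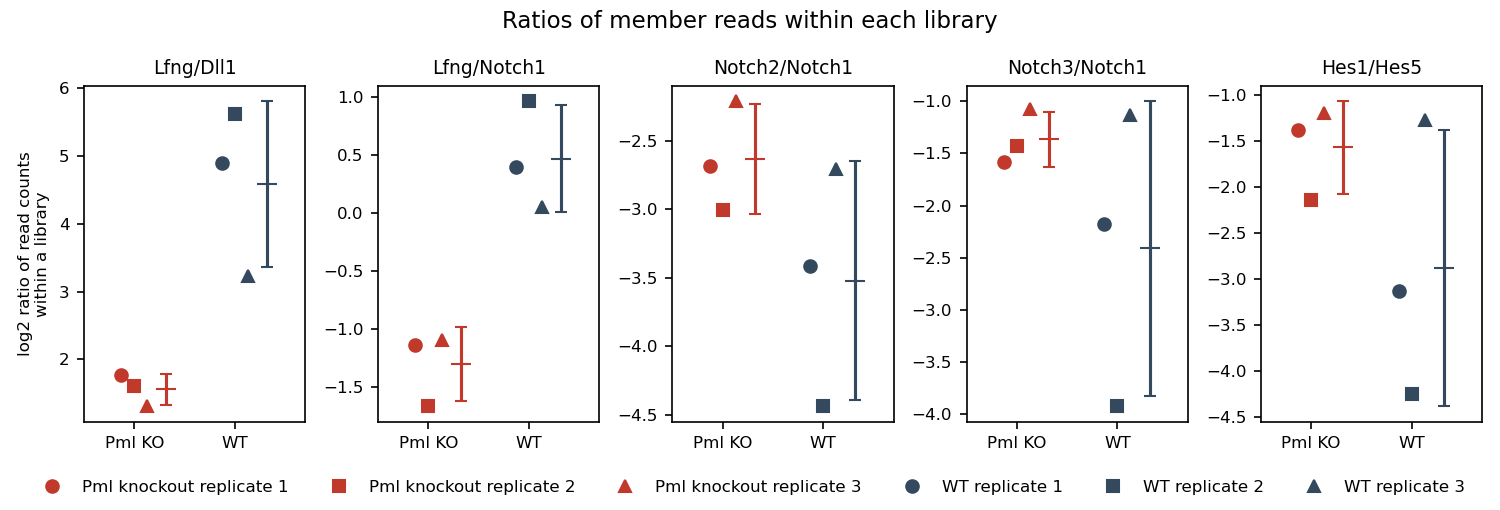
log2 ratio of the read counts of 2 members within each library, for 5 pairs, with Pml knockout in red at the left and WT in dark blue at the right; marker shapes give the replicate number and bars the mean ± SD (n = 3). The ratios of Lfng to Dll1 and to Notch1 separate the genotypes, while WT replicate 3 lies among the knockout libraries for Notch3/Notch1 and Hes1/Hes5. The separation for Lfng to Dll1 follows from the levels of these genes.

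The 4 target genes did not move together. Hey2 stood apart (ENSMUSG00000019789.9, chromosome 10, 30832359 to 30842801, minus strand): 22, 30 and 25 reads were counted in Pml knockout replicates 1, 2 and 3, and 1, 0 and 0 in WT replicates 1, 2 and 3. The knockout libraries stood at 3.31, 4.95 and 3.73 CPM. A count of 0, taken as allowing up to 3 reads, leaves room for at most 2.40 CPM in WT replicate 2 and 0.681 CPM in WT replicate 3, both under the lowest knockout library. Pooled over libraries, 77 reads in knockout against 1 in WT cells gave a ratio of 35.8 (95% exact interval 6.23 to 1430, counting error only). The edgeR adjusted p was 0.197. Hey2 entered the test only through the knockout libraries, and its fitted fold change depends on the prior count.

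Hes1, the repressor that oscillates in neural progenitors (ENSMUSG00000022528.8, chromosome 16, 30064384 to 30067796, plus strand), had 107, 97.5 and 119 CPM in Pml knockout replicates 1, 2 and 3 and 77.7, 16.0 and 77.9 CPM in WT replicates 1, 2 and 3. All knockout libraries lay above all WT libraries, but WT replicates 1 and 3 were close to each other and WT replicate 2, with 20 reads, was far below them. The log2 fold change was 0.89 (SE 0.464), with an edgeR adjusted p of 0.375, and it was 0.47 without WT replicate 2.

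Hes5, the most Notch-dependent of the Hes genes in the embryonic brain (ENSMUSG00000048001.7, chromosome 4, 154960923 to 154962371, plus strand), had 280, 430 and 273 CPM in Pml knockout replicates 1, 2 and 3. In WT replicates 1, 2 and 3 it had 682, 304 and 189 CPM, so the WT libraries held both its highest and its lowest value. The log2 fold change of -0.26 (SE 0.437) became 0.41 (SE 0.358) without WT replicate 1. The reads of Hes1 per read of Hes5 were 0.384, 0.226 and 0.436 in knockout replicates 1, 2 and 3 and 0.114, 0.0526 and 0.412 in WT replicates 1, 2 and 3. Hey1, a hairy-related repressor of the same family as Hey2 (ENSMUSG00000040289.8, chromosome 3, 8663359 to 8667256, minus strand), had 50.3, 60.4 and 41.6 CPM in knockout replicates 1, 2 and 3 and 43.5, 69.5 and 24.1 CPM in WT replicates 1, 2 and 3. It too had both its extremes among the WT libraries. Its log2 fold change was 0.18 (SE 0.381), and -0.13 (SE 0.307) without WT replicate 3. A transcript annotated on the opposite strand, Gm20421, overlaps an exon of Hes5 but not its 3′ end.

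Which WT libraries entered the fit changed both the calls and the sizes. Without WT replicate 3, which left the WT libraries with the highest pre-ribosomal RNA shares, Dll1 (log2 fold change 1.81, adjusted p 0.0285), Hey2 (adjusted p 0.0361) and Lfng (-1.93, adjusted p 0.00652) passed by edgeR. Hey2 had 1 and 0 reads in those WT libraries and entered the test through the knockout libraries alone, which limits its call. In that fit 4.81% of all genes passed higher and 7.78% lower. With WT replicate 3 alone on the WT side, assumed to vary like the knockout libraries, the log2 fold changes were 1.01 for Dll1, 0.75 for Notch2, 0.47 for Notch3 and for Hes1, and -0.68 for Lfng. Hey2 was the 1 member listed below 0.05 there (adjusted p 0.0420), but WT replicate 3 has 0 reads of Hey2, and Hey2 entered the test through the knockout libraries alone, so nothing is read from that call. In that fit 0.672% of all genes passed higher and 0.336% lower. Hey1 and Hes5 stood at 1.07 and 0.79 in that fit, and Jag1 at -0.12. Over all alternatives the adjusted p ranged from 0.0285 to 0.725 for Dll1, from 0.00252 to 0.725 for Hey2 and from 0.00652 to 0.725 for Lfng.

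**Figure D3:**
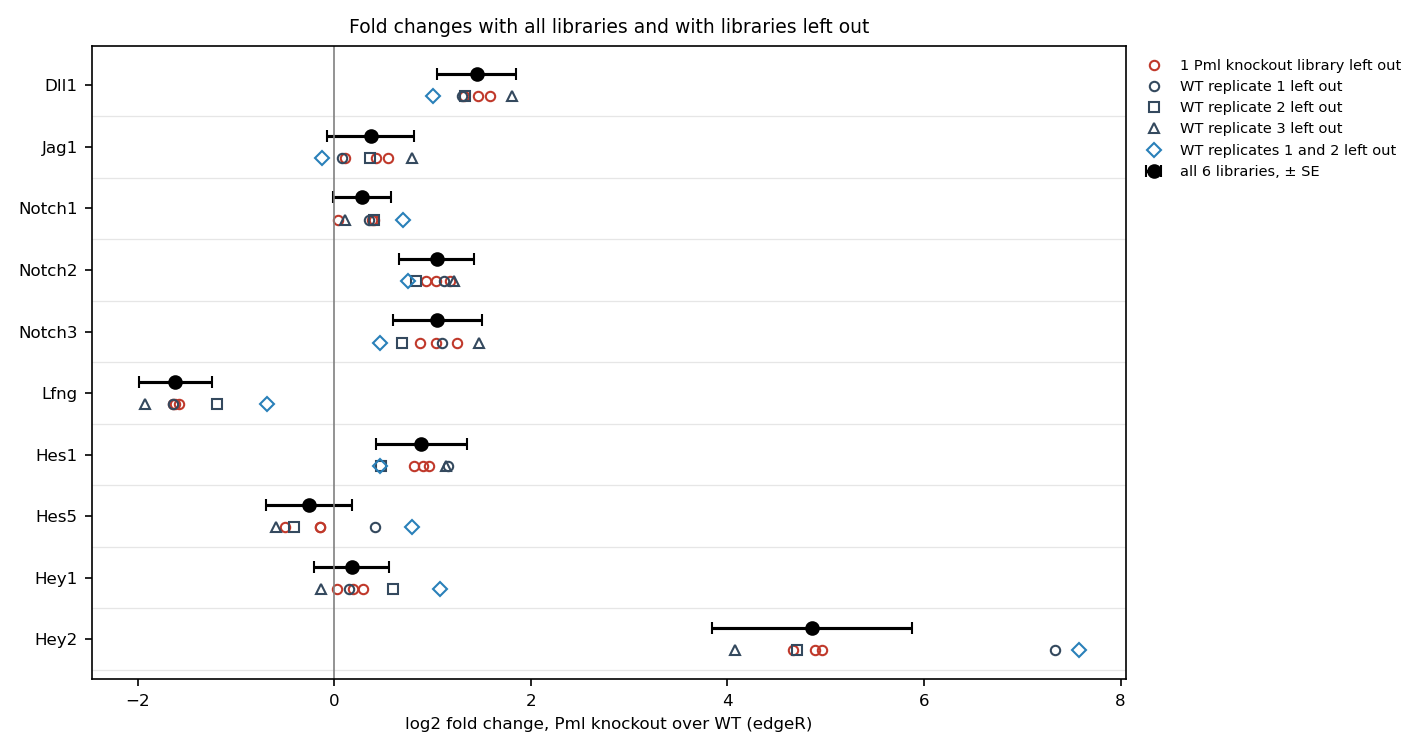
log2 fold change of Pml knockout over WT for each member by edgeR, with all 6 libraries (black, ± SE) and with libraries left out (open markers). Dll1, Notch1, Notch2, Notch3, Hes1 and Hey2 stay above 0 and Lfng below it in every such fit shown, whereas Jag1, Hes5 and Hey1 lie on both sides. For Dll1, Notch2, Hes1, Hey2 and Lfng the genotypes do not overlap, so leaving libraries out could hardly change the side.

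The rest of the pathway was taken from a list of 48 other genes, all listed with reads, of which 41 could be tested. By edgeR 0 passed in either direction, with 3 higher and 4 lower at an unadjusted p under 0.05, where 6.70% and 9.19% of all tested genes were, so these counts are near the background. DESeq2 called 1 (Tle1, higher), and limma voom and the exact test called 0. Of the 41, 19 were higher and 22 lower, and their log2 fold changes had a median of -0.04, against -0.01 over all tested genes. The genotypes did not overlap for 3 above and 3 below WT, where 12.3% and 11.3% of all tested genes did not.

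Genes that modify or cleave the receptor before it reaches the surface numbered 5 tested, 1 higher and 4 lower in value, with 2 lower at an unadjusted p under 0.05 (Furin and Rfng), as were 9.19% of all tested genes. Furin, the convertase that makes the first cut in the Golgi, had 11.6, 15.7 and 9.84 CPM in Pml knockout replicates 1, 2 and 3 and 34.2, 54.4 and 13.2 CPM in WT replicates 1, 2 and 3, which overlap at WT replicate 3. Among 9 genes of the proteases that release the intracellular domain, 3 were higher and 6 lower. Adam17, a sheddase that can cut the receptor outside the membrane, had 52.8, 53.4 and 50.1 CPM in knockout replicates 1, 2 and 3 and 30.1, 22.4 and 41.8 CPM in WT replicates 1, 2 and 3, with no overlap. In log2 fold change, Furin stood at -1.42 (SE 0.482) and Adam17 at 0.71 (SE 0.301), with edgeR adjusted p-values of 0.239 and 0.294.

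In the nuclear complex and its corepressors, 7 of 10 tested genes were higher and 3 lower, 2 of them higher at an unadjusted p under 0.05 (Tle1 and Maml2), as were 6.70% of all tested genes. Of all tested genes 49.7% were higher. Tle1, a Groucho-type corepressor recruited by Hes and Hey proteins, had 88.2, 94.3 and 81.9 CPM in Pml knockout replicates 1, 2 and 3 and 41.4, 29.6 and 53.3 CPM in WT replicates 1, 2 and 3, with no overlap. Its log2 fold change was 1.07 (SE 0.286), and its adjusted p of 0.211 by edgeR was the smallest of the 41. Maml2, a Mastermind coactivator, had 70.1, 78.5 and 70.7 CPM in knockout replicates 1, 2 and 3 and 47.9, 36.0 and 57.7 CPM in WT replicates 1, 2 and 3. Rbpj itself averaged 75.0 ± 14.6 CPM in knockout and 61.1 ± 23.1 CPM in WT cells (SD, n = 3 each), which overlap. Reads of Rbpj may be shared with annotated processed copies, so its level is uncertain.

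Among ubiquitin ligases that act on the ligands, 2 of 4 were higher and 2 lower, with Neurl1a at 3.76, 1.48 and 1.49 CPM in Pml knockout replicates 1, 2 and 3 and 2.98, 5.60 and 12.3 CPM in WT replicates 1, 2 and 3, which overlap. Of 9 inhibitors and turnover factors 5 were higher and 4 lower, none at an unadjusted p under 0.05. Dtx4, a Deltex ubiquitin ligase, had 44.2, 59.7 and 50.3 CPM in knockout replicates 1, 2 and 3 and 55.7, 168 and 53.3 CPM in WT replicates 1, 2 and 3, where WT replicate 2 stood far above the rest. Of 3 other ligands that could be tested 1 was higher and 2 lower, and Hes6, a Hes family member that opposes Hes1, was at -0.30 on the log2 scale (SE 0.315).

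**Figure D4:**
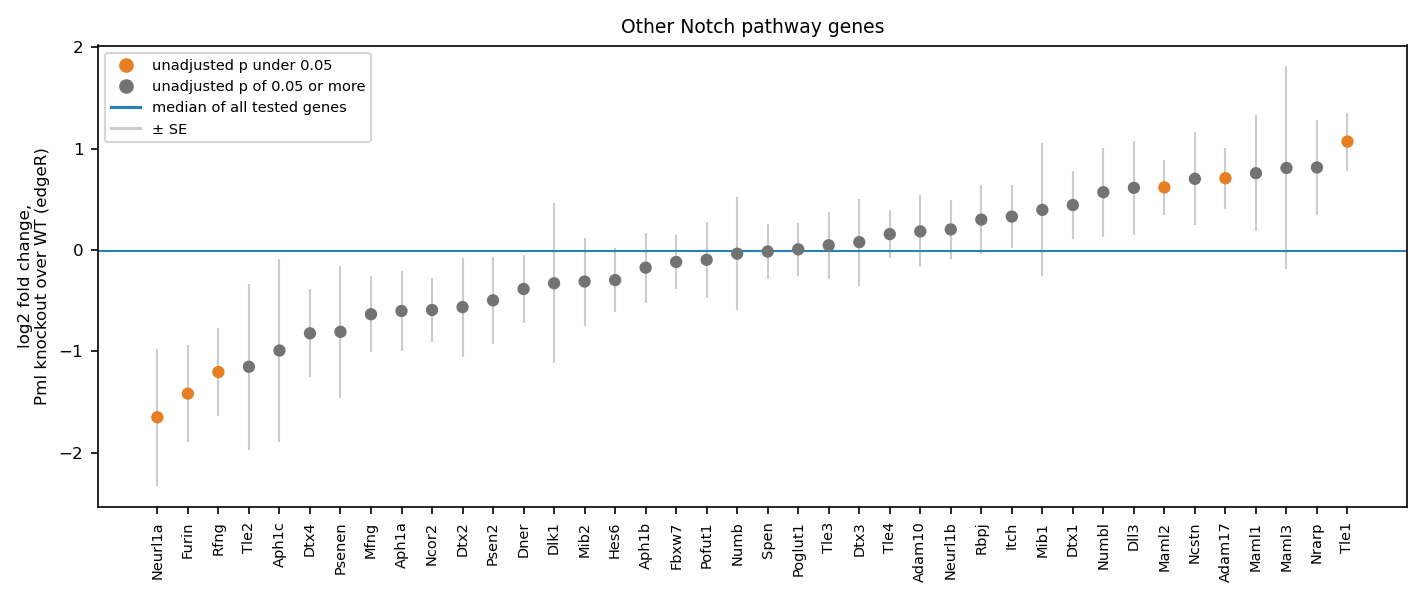
log2 fold change of Pml knockout over WT by edgeR, ± SE, for 40 of the tested genes of the other pathway list, in order of value. The 6 orange points had an unadjusted p under 0.05, the blue line is the median of all tested genes, and none of the 40 passed an adjusted p of 0.05.

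Genes whose profile over the 6 libraries was most like a member's were found by the root-mean-square difference of log2 CPM after centring each gene on its mean. The nearest to Dll1 were Pex7, a peroxisomal import receptor, Rpl15, a ribosomal protein gene whose reads may be shared with processed copies, and Hibadh, an enzyme of valine breakdown (0.120, 0.129 and 0.144 log2 units, against a median of 0.875 over all genes compared). The nearest to Lfng were Tmem147, Lurap1 and Fbxw8 (0.147, 0.156 and 0.168, median 0.960), and Tmem147 had 59.4, 50.1 and 62.1 CPM in Pml knockout replicates 1, 2 and 3 and 143, 262 and 86.7 CPM in WT replicates 1, 2 and 3. The nearest to Hes1 were Zufsp, Mospd2 and Mid1ip1 (0.105, 0.109 and 0.117, median 1.01), and the nearest to Hes5 were Stradb, Tbc1d7 and Slc25a38 (0.166, 0.191 and 0.194, median 0.744). Hey2 had no close match among the genes compared: Wdfy1, a protein of early endosomes, came first at 0.512, followed by Igfbp5 at 0.604 and Pxdc1 at 0.611 (median 1.62). Only genes of at least 5 CPM were compared, a level that Hey2 itself did not reach in any library. Whether a gene as low as Hey2 matches it was therefore not tested. With 1, 0 and 0 reads in WT replicates 1, 2 and 3, its WT values are set largely by the prior count of 2. Its distances therefore cannot be ranked against those of the other members.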

How the data were processed

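Libraries were made from RNA of integrity above 7 with a 3′ tag kit (QuantSeq forward) and 20 to 24 PCR cycles, per the labels' protocols. The submitters' processing notes name FastQC, HISAT2, HTSeq and edgeR with build mm10. The sources used here do not give versions, annotation or strand setting. Raw whole-number counts of reads per gene symbol were deposited. Per the file headers it also holds the authors' fold ratio, log2 fold change, p-value and adjusted p-value, quoted only where named as theirs, and normalized counts rounded by the authors, recorded as a score and not used here. Per-sample columns left unmapped numbered 0. All libraries carry 1 batch date.

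Differences were tested on these counts with edgeR 4.0.16 under R 4.3.3 (robust quasi-likelihood F test, TMM factors, count minimum of 10 and total of 15, leaving 11317 genes), limma 3.58.1 and DESeq2 1.42.0. P-values were adjusted by Benjamini-Hochberg over all tested genes, threshold 0.05; the SE is the log2 fold change divided by the square root of F. Centred log2 CPM used a prior count of 2 and genes of at least 5 CPM. The test was tested on simulated data. Coordinates are from GENCODE M21 (GRCm38, which mm10 names); promoters are from RefSeq (GRCm38.p6). Tags lie near transcript ends, so length does not scale the counts.

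The members and lists were chosen with earlier results of these data known. Named were Pml, all members, Rbpj, up to 8 other pathway genes with the smallest p, and the 3 nearest profiles of 5 members; Mfng and Hes6 were added after their values were seen, and 1 gene is not reported here.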

Additional observations from a re-analysis of the deposited data

How the results depend on the processing

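Direction was the same for Dll1, Notch1, Notch2, Notch3, Lfng, Hes1 and Hey2 under all alternatives run. It turned for Hes5 with library totals (0.30), without WT replicate 1 (0.41) and without WT replicates 1 and 2 together (0.79), for Hey1 without WT replicate 3 (-0.13), and for Jag1 without WT replicates 1 and 2 together (-0.12). Leaving libraries out could hardly turn Dll1, Notch2, Lfng, Hes1 and Hey2, whose genotypes did not overlap. Their constant direction in those fits adds no separate evidence. With single libraries left out, Hes5 ranged from -0.59 to 0.41 and Hey1 from -0.13 to 0.59. The cause was not tested. With library totals the median of all genes was 0.43 rather than -0.01, and the members' median was 1.03. A minimum of 5 CPM in 3 libraries left Hey2 out.

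All tested genes called higher numbered 1, and 0 with DESeq2's size factors, library totals, a minimum of 5 CPM and limma voom. They numbered 105 by DESeq2, 112 by the edgeR exact test (added after seeing the data), and 76 without WT replicates 1 and 2 together. Genes called lower numbered 0, and 2 with no count filter, 1 with a replicate block, 223 by DESeq2, 171 by the exact test and 38 without WT replicates 1 and 2 together. With single libraries left out, calls ranged from 0 to 544 higher and from 0 to 881 lower, both highest without WT replicate 3.

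Members called higher numbered 0, and 1 by DESeq2 and 2 by the exact test, where 0.928% and 0.990% of all genes were. Members called lower numbered 0, and 1 by DESeq2 and 1 by the exact test, where 1.97% and 1.51% were. With single libraries left out, members called ranged from 0 to 2 higher and from 0 to 1 lower. Each count above 0 of members called higher includes Hey2, which entered the test through the knockout libraries alone. Other pathway genes called numbered 0, and 1 by DESeq2. With single libraries left out they ranged from 0 to 4, with Furin, Rfng and Tle1 among the 4 without WT replicate 3. In that fit 4.81% of all genes passed higher and 7.78% lower, so this count is near the background.

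Whether replicate numbers pair the samples was not settled. Deviations of same-numbered libraries correlated across genes at -0.0025, 0.07 and 0.19, and those of differently numbered libraries at -0.18 to 0.09. The pair numbered 3 was the highest of all, but 3 libraries per group are too few to decide. With the replicate block 0 members passed. WT replicate 2, with 970 member reads, limits the precision of every WT mean.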

Other observations

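The pathway genes with too few reads to test were Dll4, Jag2, Dlk2, Notch4, Heyl, Hes3 and Hes7. Notch4, a receptor best known from endothelium, had 6, 4 and 5 reads in Pml knockout replicates 1, 2 and 3 and 0, 0 and 1 in WT replicates 1, 2 and 3. Heyl, the third Hey gene, had 0, 5 and 7 reads in knockout replicates 1, 2 and 3 and 1, 0 and 3 in WT replicates 1, 2 and 3. Dll4, the endothelial Delta ligand, had 2, 0 and 0 reads in knockout replicates 1, 2 and 3 and 0, 0 and 1 in WT replicates 1, 2 and 3. At these counts and unequal depths a difference was not assessed.

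Nrarp, which is induced by Notch and dampens it, had 22.0, 51.1 and 28.2 CPM in Pml knockout replicates 1, 2 and 3 and 32.1, 11.2 and 12.9 CPM in WT replicates 1, 2 and 3, which overlap. Dll3, a ligand that acts within the cell that makes it, averaged 100.1 ± 52.0 CPM in knockout and 64.9 ± 38.7 CPM in WT cells (SD, n = 3 each), which also overlap. Both were named after their values were seen.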
